A study of Mus musculus with 2 samples.

Results

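Imprinted genes that are controlled by methylation of the paternal allele were examined in mouse embryonic fibroblasts (MEFs) with normal or reduced activity of the maintenance DNA methyltransferase. The 5 members were H19, Igf2, Meg3, Dlk1 and Rasgrf1, and each was read from 15 kb upstream of its start to 5 kb past its end. These windows held 448 of the 1790826 CpGs of the table. Methylation was measured by reduced representation bisulfite sequencing (RRBS), in which DNA is cut with restriction enzymes, treated with bisulfite and sequenced, so that a cytosine still read as cytosine counts as methylated. There was 1 library of Dnmt1+/+ MEFs and 1 of Dnmt1-/- MEFs. Both lines were homozygous null for trp53, the gene for p53. The line called Dnmt1-/- was homozygous for a hypomorphic allele of Dnmt1, written Dnmt1 n/n, so that some enzyme activity may remain. Each genotype was a single cultured line, and the embryonic age and sex of the lines are not given in the sources used here. All differences are therefore between 2 libraries, with counting error only.

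In imprinted clusters 1 parental allele of a control region is methylated in the germline, and the mark is then copied at each cell division by Dnmt1. At most imprinted loci this mark is laid down in the oocyte. The loci described here belong to the small group marked in sperm: the region upstream of H19, which separates H19 from Igf2, the region between Dlk1 and Meg3, and a region far upstream of Rasgrf1. In a somatic cell such a region is therefore methylated on the paternal allele and bare on the maternal allele, and a bisulfite measurement of the mixed alleles is expected to be intermediate. Upstream of H19 the bare maternal allele is bound by CTCF, an insulator protein that keeps downstream enhancers away from Igf2. H19 and Meg3 give noncoding RNAs from the maternal allele. Igf2 encodes a fetal growth factor, Dlk1 a transmembrane protein related to Notch ligands, and Rasgrf1 a nucleotide exchange factor for Ras, and these are expressed from the paternal allele.

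CpGs within CCGG or TCGA, the recognition sequences of the enzymes MspI and TaqI, made up 44.4% of the table. They read higher in both libraries, with means of 82.8% and 57.1%, than the remaining CpGs, whose Dnmt1+/+ mean was 45.0% and Dnmt1-/- mean 15.1%. In the 14152 tiles of 1 kb where at least 5 of the remaining CpGs were measured and averaged 5% or less in both libraries, CpGs within CCGG or TCGA still read 52.1% and 51.9%. Values near that level at such sites are therefore not read as methylation here, and the sites were left out. In the 5 windows they averaged 73.3% and 54.6%. The values below are from the 273 member CpGs outside CCGG and TCGA unless stated otherwise. A median of 31 calls covered them in Dnmt1+/+ and 32 in Dnmt1-/-, against 33 in both libraries over all 996064 such CpGs. The table holds a share of calls for each CpG and no parental allele, so methylation of 1 allele in all cells and methylation of both alleles in some cells cannot be told apart.

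Methylation was lower in Dnmt1-/- in all 5 windows. The mean over the 273 CpGs was 33.6% in Dnmt1+/+ and 9.52% in Dnmt1-/-. Of these CpGs, 103 (37.7%) were lower and 1 was higher in Dnmt1-/- at an adjusted p under 0.05 by Fisher's exact test, adjusted over the whole table by the Benjamini-Hochberg method. Over all CpGs outside CCGG and TCGA, 44.2% were lower and 0.635% were higher by the same test, so the members' share of lower CpGs was below that of the table. Not 1 methylated call was seen in Dnmt1-/- at 101 of the 273. H19 had the lowest Dnmt1-/- mean, at 1.31% from 46.6%, and Dlk1 the highest, at 21.5% from 44.6%.

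H19 lies on the minus strand of chromosome 7 (mm9, 149761434 to 149764048), and distances are from its start at 149764048. Upstream of it, the 11 CpGs measured between 2787 and 4046 bp fell in a few restriction fragments. The 2 fragments that held 10 of the 11 are shown because they carry the longest run of CpGs at 30 to 70% in Dnmt1+/+. They are written 5′ to 3′ on the strand of H19 (minus strand, mm9), at chr7:149767928-149768108 and chr7:149766815-149767001, and capitals mark the CGs measured outside CCGG and TCGA.
H19 far control fragment: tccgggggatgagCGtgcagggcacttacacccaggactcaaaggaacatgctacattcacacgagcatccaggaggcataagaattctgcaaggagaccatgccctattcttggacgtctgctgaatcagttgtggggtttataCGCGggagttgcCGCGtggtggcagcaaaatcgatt
H19 near control fragment: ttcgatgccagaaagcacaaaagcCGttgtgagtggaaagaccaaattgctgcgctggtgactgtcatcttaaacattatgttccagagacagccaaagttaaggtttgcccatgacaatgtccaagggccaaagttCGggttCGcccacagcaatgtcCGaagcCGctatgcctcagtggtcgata

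In the region 2 to 4 kb upstream of H19, set by distance, 10 CpGs averaged 41.2% in Dnmt1+/+, with a range of 35% to 63.6%. The Dnmt1-/- library had 0 methylated calls at all 10. Pooled over CpGs, 66 of 166 calls were methylated in Dnmt1+/+ (39.8%, 95% Wilson interval 32.6% to 47.4%) against 0 of 153 in Dnmt1-/- (upper bound 2.45%). CpGs of 1 fragment share reads, so these intervals are too narrow. Of the 10 CpGs, 5 were lower by the test. The lowest Dnmt1+/+ value, 35%, thus stood above every Dnmt1-/- value, and the 5 CpGs that missed the threshold lay in the near fragment and were covered by 12 calls each in Dnmt1-/-.

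In the far fragment, the CpGs at 3914, 3912, 3902 and 3900 bp upstream each had 6 methylated of 14 calls in Dnmt1+/+ (42.9%) and 0 of 20 in Dnmt1-/-, with an adjusted p of 0.00647 by Fisher's exact test. Equal counts on 1 fragment are not separate measurements, because its CpGs share reads. The CpG at the other end of the fragment, 4046 bp upstream, had 7 of 14 and 0 of 20 (adjusted p 0.00211, Fisher's exact test). Between the fragments, the CpG at 3087 bp had 7 of 11 calls methylated in Dnmt1+/+ and 0 of 13 in Dnmt1-/- (adjusted p 0.00302, Fisher's exact test), and at 63.6% it was the highest of the region in Dnmt1+/+. The near fragment was lower and uniform in Dnmt1+/+: the CpGs at 2928, 2815, 2793 and 2787 bp had 7 of 20 calls methylated (35%), and the CpG at 2809 bp had 7 of 19. All 5 had 0 of 12 calls in Dnmt1-/-, with adjusted p between 0.0581 and 0.0632 by Fisher's exact test. With 12 to 20 calls, 0 methylated calls allow a methylation of up to 25% to 15% at a single CpG (3 calls), counting error only.

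The intermediate stretch itself was defined by Dnmt1+/+ values: CpGs at 30 to 70%, neighbours at most 1 kb apart, no more than 1 CpG in a row outside the limits and at least 5 inside. Across the 5 windows these settings gave 1 stretch, upstream of H19 at chr7:149766835-149768095. It spanned 1261 bp with 11 CpGs, a mean of 42.0% in Dnmt1+/+ and 0% in Dnmt1-/-, where 0 of 173 calls were methylated (upper bound 2.17%). No other CpG outside CCGG and TCGA was measured within 1 kb on either side, so the edges of the stretch could not be located. The other 11 CpGs of the H19 window averaged 51.1% in Dnmt1+/+ and 2.63% in Dnmt1-/-. The 4 sites within CCGG or TCGA in the 2 to 4 kb region averaged 70.2% and 55.0%, the latter near the level of such sites in unmethylated tiles, and none was called.

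The far fragment also held a match to the core of the CTCF motif, written here as CGNGGNGGC and searched on both strands. Between 2 and 5 kb upstream of H19 there were 3 matches, all on the strand of H19, starting 2176, 2631 and 3901 bp upstream. The match at 3901 bp (149767941 to 149767949) contained the CpG at 3900 bp, which read 42.9% and 0%. Of 37257 windows of the same length upstream of annotated gene starts, 13.5% held at least 1 match and 0.397% held 3 or more. The hexamer TGCCGC, bound by the imprint-maintaining zinc finger protein ZFP57 when methylated, occurred 5 times in the H19 window on both strands together, while 18.8% of all windows held it at least once and 0.121% held 5 or more. The occurrence at 3906 bp upstream overlapped the CTCF match by 1 base and contained the CpG at 3902 bp, also at 42.9% and 0%. The other matches contained no measured CpG.

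Around the start of H19, 10 CpGs within 1 kb averaged 47.3% and 1.22%, and 8 of them were lower by the test. They fell into 2 groups with different levels in Dnmt1+/+, upstream of the start and inside the exon. The stretch just upstream of the start is shown at chr7:149764088-149764198 (minus strand, mm9), with the same meaning of the capitals. It holds a CCGG 99 bp upstream, and the CpGs on either side of it had different depths and do not share all reads.
H19 start: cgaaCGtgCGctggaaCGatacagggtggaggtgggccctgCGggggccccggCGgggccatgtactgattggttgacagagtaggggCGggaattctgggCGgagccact

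Its 7 CpGs, 48 to 145 bp upstream, ranged from 20% to 50% in Dnmt1+/+ with a mean of 32.5%. In Dnmt1-/- they averaged 1.20%, with 5 of 7 at 0 and the highest at 5.88%. The deepest of them in Dnmt1-/-, at 61 bp upstream, had 10 of 28 calls methylated in Dnmt1+/+ and 0 of 82 in Dnmt1-/- (adjusted p 1.98e-06, Fisher's exact test). The 3 CpGs inside the exon, at 266, 271 and 279 bp, stood higher in Dnmt1+/+, at 73.7%, 94.7% and 76.3% of 76 calls. In Dnmt1-/- they read 3.85%, 0% and 0% of 52 calls. The step from intermediate to high methylation between the start and the exon was thus seen in Dnmt1+/+, while both groups were near 0 in Dnmt1-/-. Near the end of the gene a single CpG at 2280 bp had 9 of 10 calls methylated in Dnmt1+/+ and 2 of 12 in Dnmt1-/- (adjusted p 0.00562, Fisher's exact test).

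**Figure D1:**
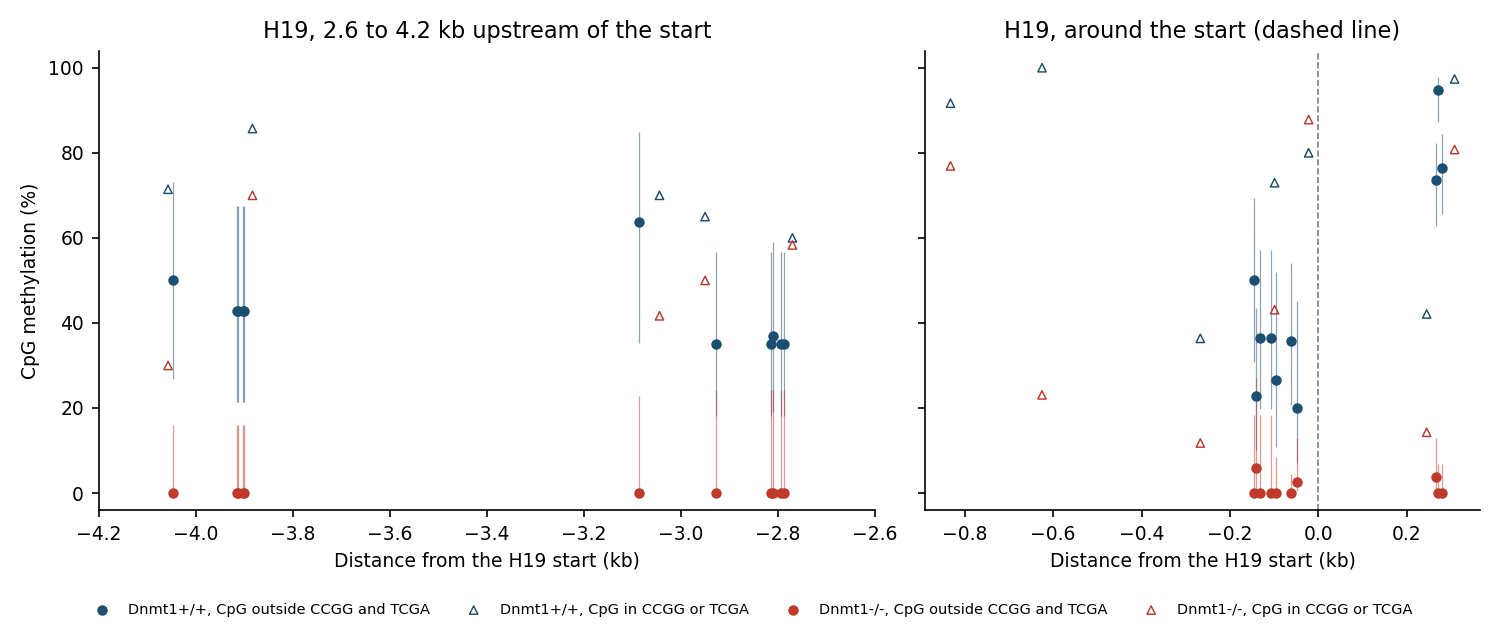
Methylation (%) of each measured CpG in the H19 control region (left) and around the H19 start (right), against distance from the start in kb, in Dnmt1+/+ (blue) and Dnmt1-/- (red). Filled circles are CpGs outside CCGG and TCGA with 95% Wilson intervals on calls, and open triangles are CpGs within them. All 11 filled circles on the left lie between 35% and 63.6% in Dnmt1+/+ and at 0% in Dnmt1-/-, while triangles of Dnmt1-/- reach 70% on the left.

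The Igf2 window (gene at 149836673 to 149852721 on the minus strand of chromosome 7, distances from 149852721) held the most CpGs, 108, and the lowest mean in Dnmt1+/+. It averaged 18.8% and 6.41%. Most of this window was nearly unmethylated in both libraries: 88 CpGs were at 20% or less in Dnmt1+/+, with means of 5.70% and 4.17%. Of the 77 CpGs within 1 kb of any of the 9 annotated transcript starts, 6 were lower by the test, with means of 12.6% and 5.13%. Pooled over calls, which gives deep CpGs more weight, the levels were 8.09% and 4.32%, a smaller difference. Upstream of the gene 11 CpGs averaged 90.9% in Dnmt1+/+ (64.7% to 100%) and fell in Dnmt1-/- by different amounts. Between 838 and 895 bp upstream, 4 CpGs averaged 93.0% and 12.6%, all lower by the test. Those at 2822 and 2817 bp upstream had 14 of 14 calls methylated in Dnmt1+/+ and 8 and 9 of 15 in Dnmt1-/-, whereas those at 2914 and 2906 bp had 95.7% and 87.0% in Dnmt1+/+ and 15.4% and 11.5% in Dnmt1-/-. At 8331 and 8269 bp upstream, 11 and 15 of 17 calls were methylated in Dnmt1+/+ and 0 of 17 in Dnmt1-/-.

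Within Igf2, intermediate methylation was found at 3 neighbouring CpGs of a coding exon, 11060 to 11084 bp from the start. They read 67.6%, 45.9% and 56.8% in Dnmt1+/+ and 14.3%, 11.4% and 20% in Dnmt1-/-, and all 3 were lower by the test. The CpG at 2594 bp, in an otherwise weakly methylated cluster, had 20 of 32 calls methylated in Dnmt1+/+ and 2 of 38 in Dnmt1-/-. The CpGs at 9790 and 9805 bp, in an intron, had 10 of 10 calls methylated in Dnmt1+/+ and 0 of 11 in Dnmt1-/-, the widest difference of any member CpG. The only member CpG that was higher in Dnmt1-/- lay in an Igf2 intron at 6195 bp. It had 2 of 90 calls methylated in Dnmt1+/+ and 16 of 128 in Dnmt1-/- (2.22% and 12.5%, adjusted p 0.0153 by Fisher's exact test). Its depth was double that of a CpG close by in both libraries, and with its calls halved the adjusted p was 0.154 by the same exact test. A few CpGs near 7 kb also read higher in Dnmt1-/- without passing the test, such as 13.3% and 34.8% at 7293 bp (30 and 23 calls). In the last 3 kb of Igf2, 0 CpGs were measured outside CCGG and TCGA.

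Meg3 lies on the plus strand of chromosome 12 (110779211 to 110809936). Its window had 24 CpGs and the highest mean of the windows in Dnmt1+/+, 72.8%, which fell by 53.8 points in Dnmt1-/-. Of the 24, 18 CpGs (75%) were lower by the test, beside 44.2% over the table. In this window 12 CpGs were at 80% or more in Dnmt1+/+, a level at which 88.2% over the table were lower. The region between Dlk1 and Meg3, set as 10 to 15 kb upstream of Meg3, was covered by a single fragment at chr12:110764887-110764948 (plus strand, mm9), which is shown because it was the only one there. Capitals mark measured CGs as above.
Meg3 far upstream: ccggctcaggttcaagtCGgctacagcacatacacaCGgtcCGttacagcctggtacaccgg

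Its 3 CpGs, at 14307, 14288 and 14283 bp upstream, were not intermediate in Dnmt1+/+: 76, 76 and 74 of 76 calls were methylated. Whether they lie within the control region cannot be told from these data, so its own level may not have been measured. In Dnmt1-/- they had 40, 30 and 54 of 86 calls, or 46.5%, 34.9% and 62.8%. The mean thus fell from 99.1% to 48.1%, and the largest adjusted p of the 3 was 1.21e-07 (Fisher's exact test). Their depths were double those of CpGs close by, and with the calls halved the largest was 0.00037 by the same exact test. The lowest and the highest of the 3 in Dnmt1-/- were direct neighbours, so the fall was not even along the fragment. Closer to the gene, from 364 bp upstream to 31 bp inside, 6 CpGs averaged 34.3% (18.8% to 55.6%) in Dnmt1+/+ and 8.66% (0% to 38.9%) in Dnmt1-/-. The 3 CpGs at 82, 65 and 59 bp upstream had 5, 3 and 4 of 16 calls methylated in Dnmt1+/+ and 1, 0 and 0 of 23 in Dnmt1-/-. At this depth only the CpG at 26 bp in the first exon passed the test, with 7 of 16 and 0 of 23 calls (adjusted p 0.00242, Fisher's exact test). The CpG at 364 bp upstream kept the most, with 30 of 54 and 28 of 72 calls (adjusted p 0.143, Fisher's exact test).

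Further into Meg3 methylation was mostly high in Dnmt1+/+ and its level in Dnmt1-/- varied between neighbouring sites. The lowest there in Dnmt1+/+ was the CpG at 14714 bp, with 5 of 10 calls methylated, and 0 of 11 in Dnmt1-/-. At 8715 and 8717 bp, 13 and 12 of 13 calls were methylated in Dnmt1+/+ and 2 of 20 in Dnmt1-/-. At 8778 and 8822 bp, within the same cluster, 11 and 13 of 13 calls were methylated in Dnmt1+/+ and 10 of 20 in Dnmt1-/- at each. The 4 CpGs past the end of the gene, 35640 to 35692 bp from the start, averaged 79.9% and 6.40%, all lower by the test. Across Meg3, highly methylated CpGs thus ranged from near 0 to 62.8% in Dnmt1-/-.

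Dlk1, the partner of Meg3 in the same cluster, lies at 110691033 to 110701546 on the plus strand of chromosome 12. Its 50 CpGs averaged 44.6% and 21.5%, which left 48.1% of the Dnmt1+/+ level. In the other windows this share ran from 2.82% at H19 to 34.1% at Igf2. Of the 50 CpGs, 24 (48%) were lower by the test, beside 44.2% over the table. The CpGs near the Dlk1 start were nearly unmethylated, with means of 3.83% and 0.970% at 6 CpGs between 726 and 772 bp. The stretch of the last exon with the most CpGs is shown at chr12:110698040-110698230 (plus strand, mm9), because some of its CpGs fell and others did not. A TCGA at 7078 bp divides it, with the 3 CpGs at 7021 to 7042 bp on 1 side and the 7 at 7098 to 7184 bp on the other.
Dlk1 last exon: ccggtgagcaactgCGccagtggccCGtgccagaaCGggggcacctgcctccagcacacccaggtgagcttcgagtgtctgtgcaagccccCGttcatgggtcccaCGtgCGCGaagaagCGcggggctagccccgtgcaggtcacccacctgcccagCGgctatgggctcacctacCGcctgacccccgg

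Its 10 CpGs, 7021 to 7184 bp from the start in coding sequence, spanned 28.6% to 95.2% in Dnmt1+/+, and 21.1% to 64.7% in Dnmt1-/-. Their means were 62.8% and 38.1%, and 5 of the 10 were lower by the test, all 3 before the TCGA and 2 of the 7 after it. The CpGs at 7098 and 7113 bp did not fall: 6 and 7 of 21 calls were methylated in Dnmt1+/+ and 11 and 14 of 34 in Dnmt1-/-, with adjusted p of 1 and 0.977 by Fisher's exact test. Their neighbour at 7117 bp went from 20 of 21 to 21 of 34 (adjusted p 0.0227, Fisher's exact test). In the untranslated part of the exon, the CpGs at 7625 and 7634 bp had 36 and 38 of 38 calls methylated in Dnmt1+/+ and 76 and 72 of 88 in Dnmt1-/-. With 86.4% in Dnmt1-/-, the CpG at 7625 bp had the highest value of all 273 member CpGs in that library. At 9186, 9188 and 9194 bp the libraries read 92.7%, 56.1% and 63.4% against 55.7%, 39.3% and 45.9%.

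Upstream of Dlk1 the CpGs split in another way. Between 14812 and 14970 bp upstream, 12 CpGs averaged 24.5% and 4.07%, with 7 lower by the test. Of these, the CpGs at 14894 and 14891 bp, of doubled depth, were not called with their calls halved. The outermost of them, at 14970 bp, had 24 of 36 calls methylated in Dnmt1+/+ and 1 of 32 in Dnmt1-/-. The pair at 4319 and 4312 bp upstream stayed high, with 20 and 21 of 21 calls in Dnmt1+/+ and 11 and 10 of 13 in Dnmt1-/-, which did not pass the test. By contrast, the single CpGs at 11272 and 5009 bp upstream went from 57.1% and 60% to 0 of 26 and 0 of 11 calls. Past the end of the gene, the CpG at 12411 bp had 17 of 18 and 2 of 18 calls. Of the 7 CpGs of the Dlk1 window that read 50% or more in Dnmt1-/-, 5 lay in the last exon and 2 were this upstream pair.

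Rasgrf1 spans 117202 bp of chromosome 9 (89804613 to 89921814, plus strand). Its 69 CpGs averaged 31.1% and 5.03%, and 29 (42.0%) were lower by the test, beside 44.2% over the table. The control region known far upstream lay outside the window. Between 28 and 34 kb upstream, 2 CpGs were measured, with means of 92.9% and 47.0%, and 1 of them was lower by the test. Neither was intermediate in Dnmt1+/+, and whether they lie within the control region cannot be told from these data. Within 1 kb of the start, 39 CpGs averaged 7.86% and 1.95%. A group of 8 CpGs just beyond that limit stood above this level in Dnmt1+/+. They lie on 1 short fragment, chr9:89803517-89803583 (plus strand, mm9), shown here because all 8 CpGs on it outside CCGG and TCGA were lower by the test.
Rasgrf1 upstream: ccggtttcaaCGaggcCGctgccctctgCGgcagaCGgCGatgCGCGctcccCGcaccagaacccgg

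These CpGs, 1044 to 1086 bp upstream, spanned 15.5% to 39.4% in Dnmt1+/+ (mean 29.6%), and 1.27% to 9.03% in Dnmt1-/- (mean 6.37%). Every Dnmt1-/- value lay below the lowest Dnmt1+/+ value. Because the fragment was picked by its calls and its CpGs share reads, these values are a description. The greatest fall was at 1051 bp, from 52 of 142 calls to 4 of 157 (adjusted p 1.22e-13, Fisher's exact test). The outermost CpGs, at 1086 and 1044 bp, had 71 calls in Dnmt1+/+ and the 6 between them 140 to 142. In Dnmt1-/- the same CpGs had 79 calls and 155 to 158, and all 8 CpGs were still called with the doubled calls halved, with adjusted p up to 0.00955 at the 6 by Fisher's exact test. Such doubled depths were also seen at other CpGs named here: at 266 to 279 bp in H19, 11060 and 11075 bp in Igf2, 14307 to 14283 and 364 bp upstream of Meg3, and 7032, 7042, 7625, 7634 and 9186 bp in Dlk1. Among the CpGs of the Rasgrf1 body described below, they were found at 13968, 55936, 76126, 76152 and 76159 bp. When the calls of all 67 such CpGs were halved, 99 member CpGs were lower instead of 103 and none was higher (0).

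In the body of Rasgrf1, CpGs that were fully methylated in Dnmt1+/+ lost most of it. The 2 CpGs of a coding exon at 92074 and 92092 bp had 18 of 18 calls methylated in Dnmt1+/+ and 1 of 23 in Dnmt1-/-. The 3 CpGs at 76126 to 76159 bp averaged 73.9% and 1.80% (46 and 74 calls each). At 13968 bp, 48 of 48 and 14 of 92 calls were methylated. More was left at 55919 to 55959 bp, where 4 CpGs averaged 69.9% and 24.2%. None of the 11 CpGs at 80% or more in Dnmt1+/+ kept 50% in Dnmt1-/-.

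**Figure D2:**
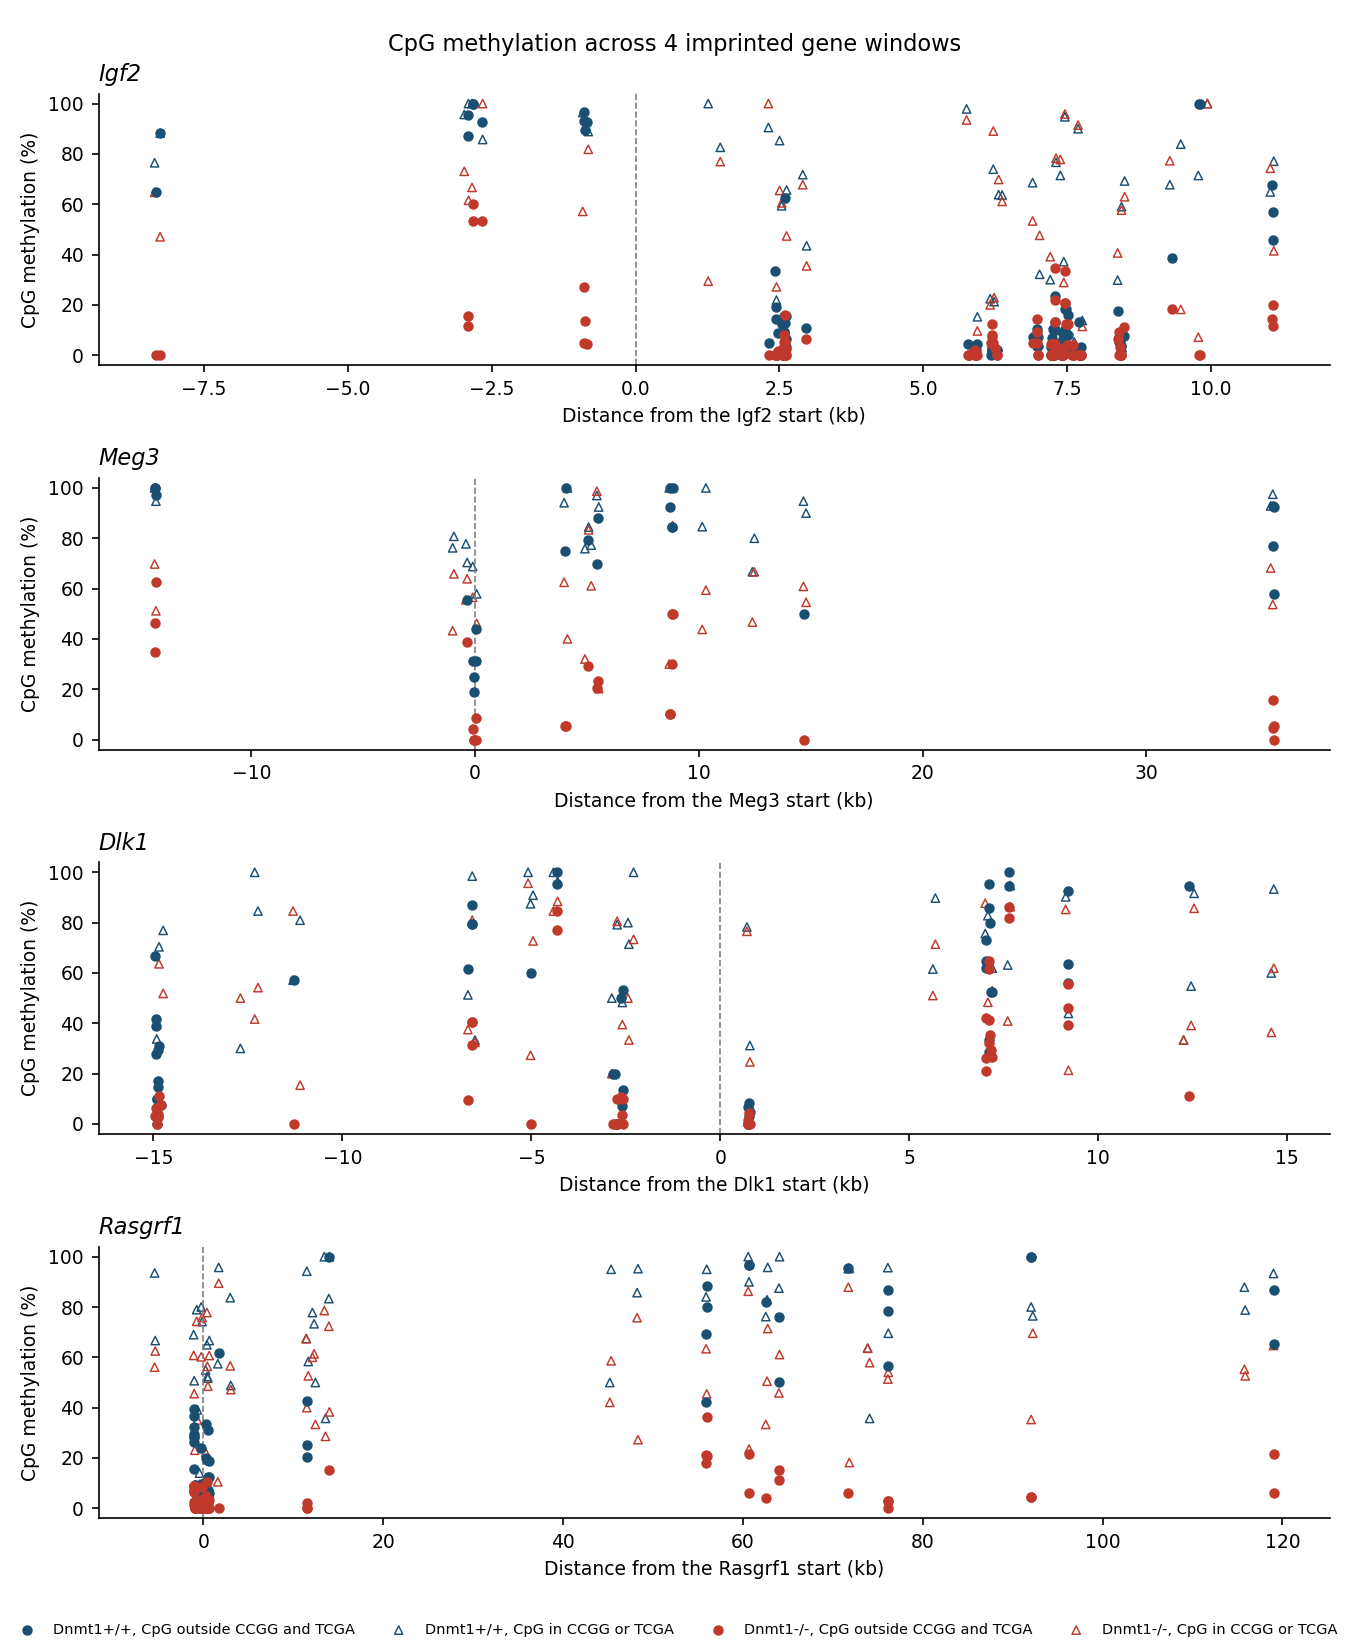
Methylation (%) of each measured CpG in the windows of Igf2, Meg3, Dlk1 and Rasgrf1 against distance from the gene start in kb (dashed line), in Dnmt1+/+ (blue) and Dnmt1-/- (red). Filled circles are CpGs outside CCGG and TCGA and open triangles are CpGs within them. Filled red circles reach 86.4% in the Dlk1 window and stay at or below 36.4% in the Rasgrf1 window.

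Intermediate values were not limited to control regions. In all, 113 member CpGs read 30 to 70% in Dnmt1+/+, and 56 of them lay in CCGG or TCGA. These 56 averaged 53.4% and 46.2%, near the level of such sites in unmethylated tiles, and are not read as intermediate methylation. The 57 outside them averaged 48.0% and 9.35%. Of the 57, 37 (64.9%) were lower by the test, beside 66.3% of the 84319 such CpGs in the table. Since Dnmt1+/+ values chose these CpGs, the counts are a description. All 15 at H19 had 0 methylated calls in Dnmt1-/-. At the other genes 2 each had 0, of 7 at Igf2, 7 at Meg3, 16 at Dlk1 and 12 at Rasgrf1, and their means in Dnmt1-/- were 9.88%, 11.1%, 17.7% and 8.53%. Over all such CpGs, 27.9% had 0 methylated calls in Dnmt1-/-, and the mean was 14.4%. Just inside the limits lay the CpGs at 14843 bp upstream of Dlk1 (30.8% and 11.1%) and 5457 bp into Meg3 (69.7% and 20.5%). Just outside lay those at 1053 bp upstream of Rasgrf1 (29.6% and 9.03%) and 7021 bp into Dlk1 (73.0% and 42.1%).

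Highly methylated CpGs differed between windows in what was left. At 80% or more in Dnmt1+/+ there were 47 member CpGs, with means of 93.4% and 27.9%, and 13 of them kept 50% or more in Dnmt1-/-. Over the whole table the 377268 such CpGs averaged 94.6% and 32.0%, and 26.8% of them kept 50% or more. The 10 at Dlk1 averaged 59.9% in Dnmt1-/-, and 7 of these kept 50% or more. The 12 at Igf2 and the 12 at Meg3 averaged 20.3% and 27.3%, with 3 at 50% or more in each window. The 11 at Rasgrf1 averaged 11.3% and the 2 at H19 8.33%, with none at 50% or more. These differences between windows were not tested, since the CpGs of a window share fragments.

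**Figure D3:**
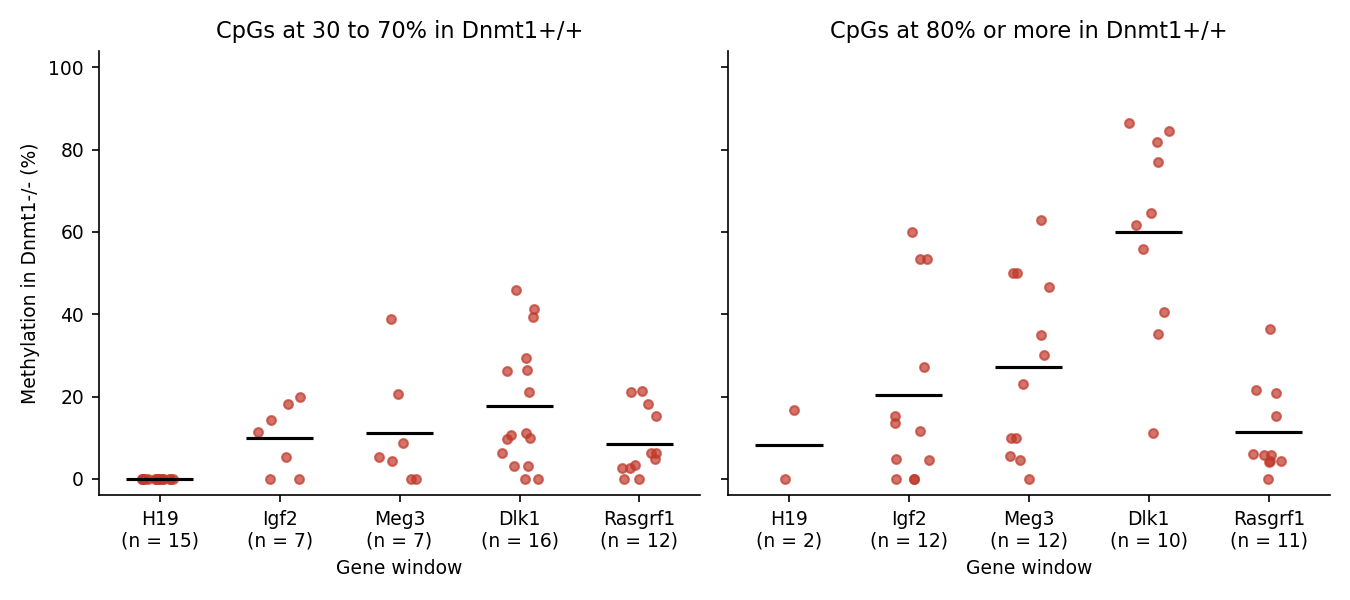
Methylation (%) in Dnmt1-/- of member CpGs outside CCGG and TCGA that read 30 to 70% (left) or 80% or more (right) in Dnmt1+/+, by gene window. Each point is 1 CpG, n is the number of CpGs and black lines are means. All 15 H19 points on the left lie at 0%, and 7 of the 10 Dlk1 points on the right lie at 50% or above.

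By annotation, the 93 CpGs upstream of the 5 genes averaged 38.1% and 9.60%, the 87 in introns 22.0% and 5.59%, and the 30 in coding exons 45.5% and 16.1%. The 15 in exons of the noncoding genes H19 and Meg3 averaged 78.9% and 14.2%, and the 41 in untranslated regions of coding genes 14.7% and 11.2%. The 7 downstream of the genes averaged 80.9% and 9.15%. The smallest fall among these was thus in untranslated regions, where 30 of the CpGs were in Igf2 and 11 in Dlk1. Those of Igf2 averaged only 5.81% in Dnmt1+/+, so they could fall by little.

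**Figure D4:**
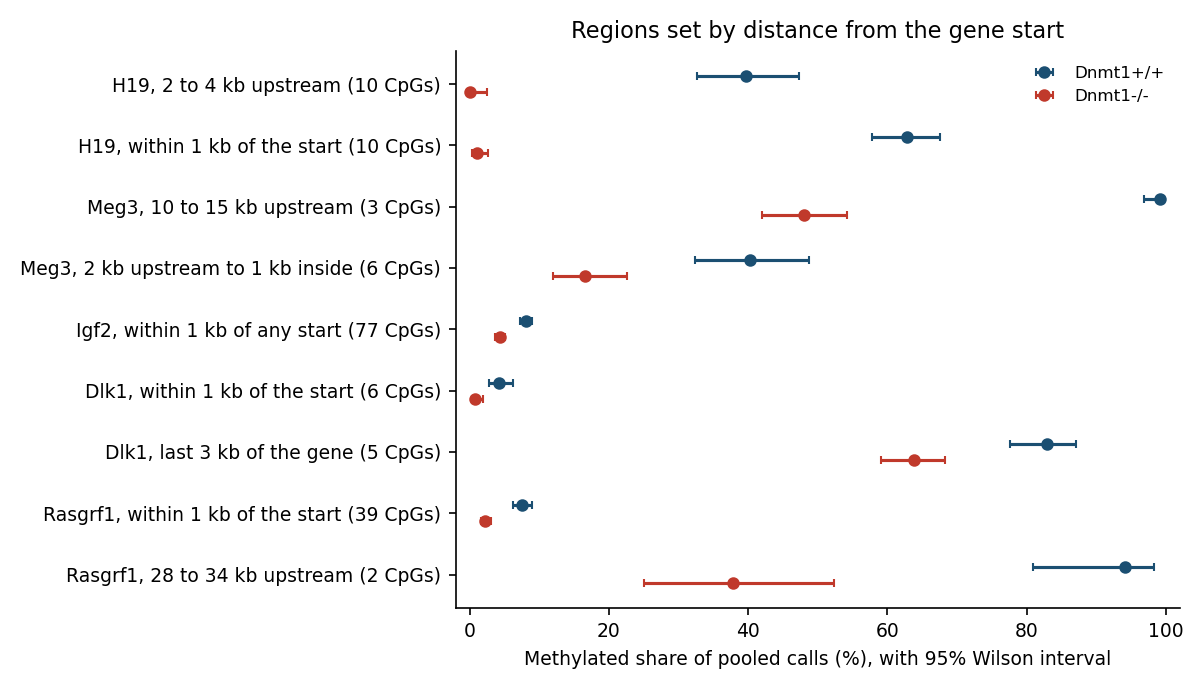
Methylated share of pooled calls (%) with 95% Wilson intervals in the regions set by distance from gene starts, in Dnmt1+/+ (blue) and Dnmt1-/- (red). The number of CpGs outside CCGG and TCGA is given in brackets. In Dnmt1-/- the H19 regions lie at 0% and 1.03%, the region upstream of Meg3 at 48.1% and the end of Dlk1 at 63.8%.

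Intermediate stretches were not rare in the table as a whole. The same rule found 1355 of them, with median levels of 48.7% in Dnmt1+/+ and 15.1% in Dnmt1-/-. In 15 (1.11%) every CpG had 0 methylated calls in Dnmt1-/-, and 295 (21.8%) averaged under 5%. Among the 311 stretches with at least 10 CpGs, 57 (18.3%) averaged under 5% and 1 had 0 methylated calls throughout, the H19 stretch itself. Whether all calls are unmethylated depends on how many were made, and the H19 stretch was covered by 12 to 20 calls per CpG in Dnmt1-/-, under the median of 33.

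Neighbouring genes of the clusters were read within 1 kb of their starts from a list of 15. The 6 with at least 5 CpGs spanned 0.367% to 9.77% in Dnmt1+/+, and 1.11% to 11.7% in Dnmt1-/-, and none was intermediate. Of their 255 CpGs, 8 were lower (3.14%) and 14 were higher (5.49%) by the test, beside 44.2% lower and 0.635% higher over the table. Among CpGs of the table at 20% or less in Dnmt1+/+, 2.83% were lower. Of the 14 higher CpGs, 12 were in Begain and 2 in Dio3. The highest in Dnmt1-/- was Begain, upstream of Dlk1, at 8.80% and 11.7%, and the lowest was Wars, at 0.367% and 1.11%. For loci whose imprint comes from the oocyte, a list of 15 genes, also read within 1 kb of their starts, gave 9 with at least 5 CpGs. A start need not lie in the imprinted region: 7 of the 9 were at 30 to 70% in Dnmt1+/+, and 1 was at 20% or less. Levels of the 9 spanned 3.42% to 69.3% in Dnmt1+/+ (median 43.9%), and 0.899% to 33.2% in Dnmt1-/- (median 4.32%). Of their 198 CpGs, 97 (49.0%) were lower by the test, beside 44.2% over the table. Plagl1 was the lowest in Dnmt1-/- and Nnat the highest. The H19 control region, with 41.2% and 0%, lay within the Dnmt1+/+ range of these genes and below all 9 in Dnmt1-/-, with an upper bound of 2.45% that does not separate it from the lowest of them.

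As a check on the label, fibroblast markers were read at their starts. Vim was nearly unmethylated in both libraries (2.87% and 0.464%), and Col1a2 read 30.6% and 7.60%. The epithelial genes Epcam and Cdh1 read 29.1% and 12.4%, and 11.4% and 7.16%. A further fibroblast marker read 0.616% and 0.587%, while 4 fibroblast markers and 4 markers of other cell types had fewer than 5 CpGs. Among these, Thy1 went from 14.5% to 32.3% at 4 CpGs, of which 2 were higher by the test. Pou5f1 went from 79.6% to 33.0% at 4 CpGs, all lower by the test, and Pecam1 from 92.9% to 30% at 1 CpG. Pdgfrb read 0.901% and 0% at 3 CpGs, and Col1a1 0% in both libraries at 1. Col3a1, Ptprc and Nanog had 0 CpGs measured outside CCGG and TCGA. Methylation at a start does not by itself identify a cell type.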

How the data were processed

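The authors deposited 1 table of single CpGs with a depth and a percent methylation for each library. Depth, as deposited, counts methylation calls, and the deposited percent is the methylated share of those calls. RRBS and mapping to mm9 were carried out by a sequencing provider, and the submitters' processing notes name Bismark without a version. The authors kept CpGs with at least 10 calls in both libraries. Calls came out whole at 100% of CpGs (within 0.01 calls). All positions fell on a CG of NCBIM37, the same build, and genes are from GENCODE vM1. Coordinates are 1-based at the C of the plus strand.

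Each CpG's methylated and unmethylated calls were tested by Fisher's exact test (two-sided), with p-values adjusted by the Benjamini-Hochberg method across the 1790826 CpGs and called under 0.05. This compares 2 libraries, not genotypes. Tested on 20000 simulated CpGs with real depths, it called 75.7% of 2000 set at 50% and 5%, and 0.2% of those set at 50% in both. The adjustment there ran over the simulated CpGs alone, and shared reads were not simulated, so these shares need not hold for the table. CpGs in CCGG or TCGA were left out of the main values. At 67 of the 273 member CpGs (24.5%), and at 15.4% of such CpGs in the table, depth was within 5% of 2 times that of a CpG within 100 bp in both libraries, and halving those calls was an alternative added after the data had been seen. Means count each CpG once, intervals are 95% Wilson intervals, and a 0 is limited by 3 calls. No molecular identifiers are described in the sources used here, and reads may not be independent molecules, so intervals and limits cover counting error only.

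The genes named were the 5 members, all stretches, and the highest and lowest in Dnmt1-/- of each comparison list with at least 5 CpGs. Dio3 and the markers with fewer than 5 CpGs were named after their values were seen. Members, lists, regions and limits were chosen with earlier results of these data known. Tests used scipy 1.17.1, tables pandas 2.3.3 and numpy 2.4.6, and figures matplotlib 3.10.9, in python 3.11.15. Other data types of the study were not analysed here.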

Additional observations from a re-analysis of the deposited data

How the results depend on the processing

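No value changed direction under any alternative. The count of 103 lower and 1 higher member CpGs became 67 of 192 lower at a depth of at least 20 and 38 lower after thinning to 10 calls. No CpG was higher (0) at an adjusted p under 0.01, with a difference of at least 25 points, or after thinning. Halving calls at CpGs of doubled depth, added after the data had been seen, gave 99 lower and 0 higher: the Igf2 CpG at 6195 bp and 4 lower CpGs of Dlk1 were no longer called.

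Differences in window means, Dnmt1-/- minus Dnmt1+/+, were -45.3 points at H19, -12.4 at Igf2, -53.8 at Meg3, -23.1 at Dlk1 and -26.0 at Rasgrf1. With all CpGs they were -36.9 at H19, -41.3 at Meg3, -20.0 at Dlk1 and -23.7 at Rasgrf1. At a depth of at least 20 they were -69.2 at H19 (4 CpGs), -8.18 at Igf2 and -47.7 at Meg3. With pooled calls they were -55.2 at H19, -7.57 at Igf2, -16.4 at Dlk1 and -23.5 at Rasgrf1, and with 40 kb upstream -27.8 at Rasgrf1.

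Within 1 kb of the H19 start the difference of -46.0 became -37.8 with all CpGs, -69.2 at a depth of at least 20 and -61.8 with pooled calls. Near Igf2 starts, -7.48 became -5.06 at a depth of at least 20 and -3.77 with pooled calls. The 28 to 34 kb region upstream of Rasgrf1 went from -45.9 to -68.6 at that depth, where 1 CpG was left.

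The 1 intermediate stretch became 5 with limits of 20 to 80%, 5 with at least 3 CpGs, 2 with gaps up to 500 bp and 0 at a depth of at least 20. With 20 to 80% the added stretches were at the H19 start (47.3% and 1.22%), the Meg3 start (34.3% and 8.66%), the Dlk1 last exon (52.4% and 32.6%) and upstream of Rasgrf1 (31.6% and 7.10%). The cause of these changes was not tested, other than the fewer CpGs left at the greater depth. At that depth the H19 region 2 to 4 kb upstream gave no value.

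No paired analysis was possible because neither genotype had a second library. For the same reason no library was left out. Depth was 1 limit: at a depth of 10 calls, 0 methylated calls allow up to 30% methylation.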
